A study of Mus musculus with 28 samples.

Results

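The genes described here encode the contact between colon epithelial cells and the extracellular matrix: integrin subunits, laminin chains, collagen chains, matrix metalloproteases (Mmp) and tissue inhibitors of metalloproteases (Timp). They were chosen by name, as all rows whose symbol starts with Itga, Itgb, Lama, Lamb, Lamc, Col, Mmp or Timp followed by a digit, together with Itgav and Itgae. The rule found 43 of the 13519 genes counted. These were 8 integrin alpha, 8 integrin beta, 7 laminin, 9 collagen, 9 Mmp and 2 Timp rows. Of the 43 rows, 39 encode an integrin subunit, a matrix chain, a protease or an inhibitor of one. The other 4 meet the naming rule only: Itgb1bp1 and Itgb3bp (proteins that bind an integrin beta chain), Col4a3bp (a lipid transfer protein that binds a collagen chain) and Itgb2l (an integrin beta 2-like gene). The annotation names 65 further protein-coding genes that meet the rule, among them Col1a1, Col3a1, Itga4, Itgb2, Lama1, Mmp9, Mmp10, Mmp13 and Timp1, and these were not analysed here.

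RNA was sequenced from colon epithelium organoids of C57BL/6N mice. All of them carried the VillinCreERT2 transgene, in which an intestinal epithelial promoter drives a Cre recombinase that 4-hydroxytamoxifen (4-HT) activates, and 2 floxed copies of Apc (APCflox/flox). AC organoids carried nothing further. PAC organoids also carried Trp53LSL-R172H/+, which gives mutant p53 R172H after recombination, BAC organoids BraffloxV600E/+, which gives BRAF V600E, and BPAC organoids both. The EtOH samples therefore hold the same alleles in unrecombined form, while every 4-HT sample of every genotype combines the loss of Apc with exposure to 4-HT, and these cannot be told apart. Organoids received 3.5 µM 4-HT or ethanol (EtOH) during 24 hours, with RNA taken 3 days after that. The labels name 7 donor mice: AC came from 1, and PAC, BAC and BPAC from 2 each. Every donor gave 2 cultures (duplicates 1 and 2). This gave 14 cultures and 28 samples, with 2 samples per treatment for AC and 4 for each other genotype. Both duplicates of a donor come from 1 animal, so the AC values rest on 1 mouse. The study describes 2 donor mice for each genotype, used at 2 distinct passages, whereas the labels name 1 donor for AC. The labels do not say what the duplicates are, so duplicates 1 and 2 may be these passages. The age of the mice was not given. The study's methods grow the organoids in Matrigel, a basement membrane extract that supplies laminin and collagen IV protein whatever the cells transcribe.

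Epithelial cells stand on a basement membrane, a sheet in which laminin trimers and collagen IV networks are tied together by nidogen and perlecan. Integrins are alpha and beta pairs that bind this sheet from the cell side. In colon epithelium the pair of Itga6 and Itgb4 binds laminins, Lama3 and Lamb3 chains among them, and anchors keratin filaments through hemidesmosomes, while pairs with Itgb1 link laminin and collagen to actin. Mmps cut matrix proteins and cell surface proteins, and Timps block them.

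The samples held 20577276 to 40068718 counts each. All 10 epithelial markers were found (Epcam, Cdh1, keratins and others, 17440 to 32670 CPM in sum, that is counts scaled to a library of fixed size). Some of them were lower with 4-HT, as the members that fell were: Krt20 and Cldn7 fell in all 4 genotypes (Krt20 -1.79, -1.84, -1.74 and -2.14 in AC, PAC, BAC and BPAC on the log2 scale, Cldn7 -0.53, -0.43, -0.43 and -0.61), and Epcam and Vil1 fell in PAC, BAC and BPAC (-0.44 to -0.74 and -0.65 to -0.95). Cdh1 and Cdx1 were called lower in BAC and BPAC (Cdh1 -0.49 and -0.64, Cdx1 -0.53 and -0.47) and not in AC or PAC. Others were not called, among them Krt18 with 0.27, 0.42, 0.52 and 0.50 and Cdx2 with -0.26, -0.40, 0.03 and -0.38. The part of the epithelial markers in the falls of members was not tested. Of 13 fibroblast and muscle markers 3 were among the genes counted (Pdgfrb, Vim and Fbln1, 22.0 to 74.0 CPM in sum), of 6 endothelial markers 3 (4.88 to 9.41 CPM) and of 12 immune markers 3 (2.58 to 7.08 CPM). Itgae, an integrin chain of intraepithelial lymphocytes, stood at 0.202 ± 0.070 RPKM, which is CPM per kilobase of exon, over the 14 EtOH samples. In bulk RNA, fewer cells of a type and less RNA per cell cannot be told apart. A pair of samples stood apart. The 4-HT samples of duplicate 1 of both PAC donors held Xist (25.2 and 22.0 CPM) as well as Y-linked counts (55.0 and 53.5 CPM), while every other sample held mainly one or the other. They were also the closest pair of all, with a root mean square log2 difference of 0.204 against 0.346 for the next pair, although they differed by more than counting noise (chi-square per degree of freedom of 2.38, next pair within a group 8.53). These samples may be mixed or may hold the same material, so they may not be independent replicates and give no firm value for a single PAC donor. The members called in PAC are therefore also given without these cultures and with the 2 samples summed as 1.

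The upstream sequences of 4 members are shown because 3 of them, Itgb6, Mmp15 and Lamb2, were the members with a called Braf contrast of their 4-HT response, and because Mmp7 was the secreted protease with the highest level. Capitals mark motif letters, TGANTCA (AP-1, the site of Fos and Jun) or CTTTGNT (TCF/LEF, the site of the Wnt factors), searched on both strands. Sequences are from RefSeq (GRCm38.p6), written 5′ to 3′ on the strand of the gene and starting 250 bases before the RefSeq start. They end 51 bases before it, or 131 bases before it for Lamb2, so that no annotated exon is included.
Mmp7: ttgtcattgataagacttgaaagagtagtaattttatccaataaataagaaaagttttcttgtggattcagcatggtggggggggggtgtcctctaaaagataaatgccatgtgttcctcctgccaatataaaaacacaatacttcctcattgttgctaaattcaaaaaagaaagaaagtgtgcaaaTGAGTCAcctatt
Lamb2: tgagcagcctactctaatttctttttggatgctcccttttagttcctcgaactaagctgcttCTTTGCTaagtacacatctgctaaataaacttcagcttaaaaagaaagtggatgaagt
Itgb6: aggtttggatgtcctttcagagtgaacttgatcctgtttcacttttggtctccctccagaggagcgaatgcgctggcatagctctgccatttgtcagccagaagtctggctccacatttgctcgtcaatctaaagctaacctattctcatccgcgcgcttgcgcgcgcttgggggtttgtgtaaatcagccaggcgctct
Mmp15: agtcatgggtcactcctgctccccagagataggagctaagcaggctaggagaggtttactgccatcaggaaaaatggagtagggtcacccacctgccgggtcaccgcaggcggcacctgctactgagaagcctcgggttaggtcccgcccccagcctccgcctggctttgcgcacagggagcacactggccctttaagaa
They lie at chr9:7691840-7692039 (plus strand), chr9:108479612-108479731 (plus strand), chr2:60722654-60722853 (minus strand) and chr8:95352046-95352245 (plus strand). RefSeq promoters were found for 32 members, with 37 windows of 250 bases in all. The AP-1 letters stood in 2 of the 37 windows, those of Mmp7 (63 bases before the start) and Mmp20, against 6.75% of 32851 promoters. The TCF/LEF letters stood in 6 of the 37 windows, Lamb2 among them (188 and 129 bases before the start, the second outside the bases shown), against 16.0% of all promoters. A further window of Mmp7, before another RefSeq start and not shown, was also among them (247 bases before that start). The ETS letters CCGGAA stood in 3 windows, against 12.0%. A match is a description of the letters and not a binding site, and no match says only that the letters are not in the window.

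In EtOH the highest levels per length were mostly those of integrins that bind laminin, with the laminin chain Lamb3 among them. On the RPKM scale Itgb1 (118 ± 11.3, SD, n = 14) led all 43 genes. Other high levels were those of Lamb3 (71.9 ± 9.22), Itgb4 (53.8 ± 6.29), the membrane-bound protease Mmp15 (45.4 ± 8.23), Itga3 (40.4 ± 3.59) and Itga6 (32.9 ± 5.09). The ranges of Itga3 and Itga6 over the 14 samples overlapped. Itga2, the alpha chain of a collagen receptor, stood at 10.5 ± 1.56 RPKM and Itgb5, a vitronectin receptor chain, at 12.4 ± 1.25. Among the proteases Mmp15 was followed by Mmp14 (13.9 ± 2.19), which is also bound to the membrane, and by the secreted matrilysin Mmp7 (11.1 ± 4.79), whose range reached from 3.21 to 18.5. The alpha chain Lama3 stood at 5.08 ± 0.911 RPKM, below Lamb3 in every sample. The collagens were lower, with Col4a1 at 4.72 ± 2.28, its partner Col4a2 at 4.36 ± 2.07 and Col18a1 at 2.61 ± 0.657 RPKM. Timp2 stood at 6.18 ± 2.11 and Timp3 at 0.219 ± 0.103 RPKM. Counting all 28 samples, 28 of the 43 genes exceeded 1 CPM in each of them, 14 had a mean of fewer than 50 counts, and 9 reached 1 CPM in at least 2 samples in only one of the treatments.

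**Figure D1:**
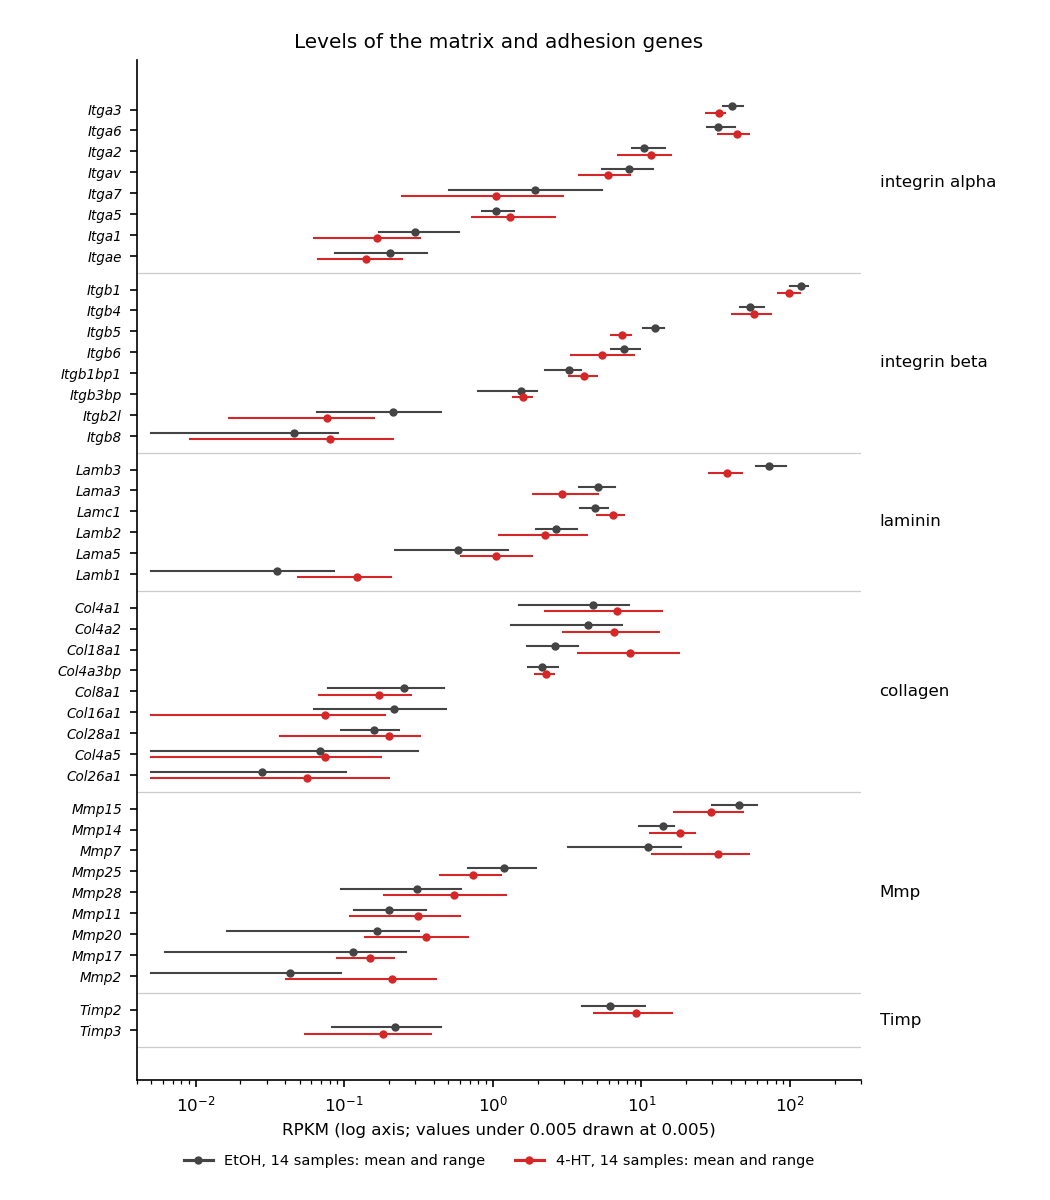
Level of 42 of the 43 genes in RPKM on a log axis, by family, with EtOH (grey) and 4-HT (red); points are means and lines run from the lowest to the highest of 14 samples, with values under 0.005 drawn at 0.005. Itgb1 led with 118 RPKM in EtOH, and Lamb3 and Itgb5 show 4-HT ranges that lie wholly below their EtOH ranges.

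The change from EtOH to 4-HT was tested in each genotype with edgeR's quasi-likelihood test, with Benjamini-Hochberg adjustment across the 13519 genes and calls at an adjusted p under 0.01; "called" refers to this test on all samples unless another is named. In AC organoids 0 members rose and 2 fell, where 3.00% of all genes rose and 4.25% fell. In PAC organoids 6 rose and 3 fell, against 11.2% and 12.2% of all genes. In BAC organoids 7 rose and 10 fell, against 20.3% and 21.5%, and in BPAC organoids 8 rose and 11 fell, against 22.0% and 23.0%. The table of counts holds only genes over 1 CPM in at least 2 samples, and 9 members reached this in one treatment alone: Itgae and Itgb2l with EtOH, and Itgb8, Lamb1, Col26a1, Col28a1, Mmp2, Mmp11 and Mmp20 with 4-HT. A change towards that treatment was favoured by this selection, so their values are a description. Over the other 34 members 0 rose and 2 fell (AC), 3 rose and 3 fell (PAC), 5 rose and 9 fell (BAC), and 5 rose and 11 fell (BPAC). The median log2 change of the members was 0.12, -0.02, 0.15 and 0.08 in AC, PAC, BAC and BPAC, and that of all genes 0.01, -0.03, -0.04 and -0.04. At an unadjusted p under 0.05 the AC comparison held 9 members (30.8% of all genes). No member was called in both directions, 18 were called in no genotype, and 2 were called in all 4, Itgb5 and Lamb3, both lower. The comparisons have different numbers of samples, so a gene called in one genotype and not in another is not shown to differ between them. Without both PAC cultures of duplicate 1 no PAC member was called (0, against 9), and with their 4-HT samples summed as 1 the count was 5 (Col18a1, Itgb5, Lamb3, Mmp2 and Mmp7). The other 4, Itgb1, Lama5, Lamb1 and Mmp11, had an adjusted p of 0.025, 0.016, 0.018 and 0.013 in that setting and of 0.20, 0.20, 0.29 and 0.19 without the cultures, with the same direction in each. Scaled by library size alone, which moved the median of all genes from 0.01, -0.03, -0.04 and -0.04 to 0.23, 0.20, 0.13 and 0.18 in the 4 genotypes, the rises and falls were 0 and 1 (AC), 11 and 2 (PAC), 10 and 10 (BAC), and 11 and 8 (BPAC). The shares of all genes called with this scaling and in the 2 other PAC settings are not given here. The counts in these settings are therefore not a result about the members.

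Samples of 1 culture deviated together. With the culture as a replicate block, the called members of AC, PAC, BAC and BPAC numbered 7, 16, 21 and 26, where 16.4%, 34.9%, 51.9% and 54.4% of all genes were called. Where this pairing changes a call, its adjusted p is given as the blocked value.

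**Figure D2:**
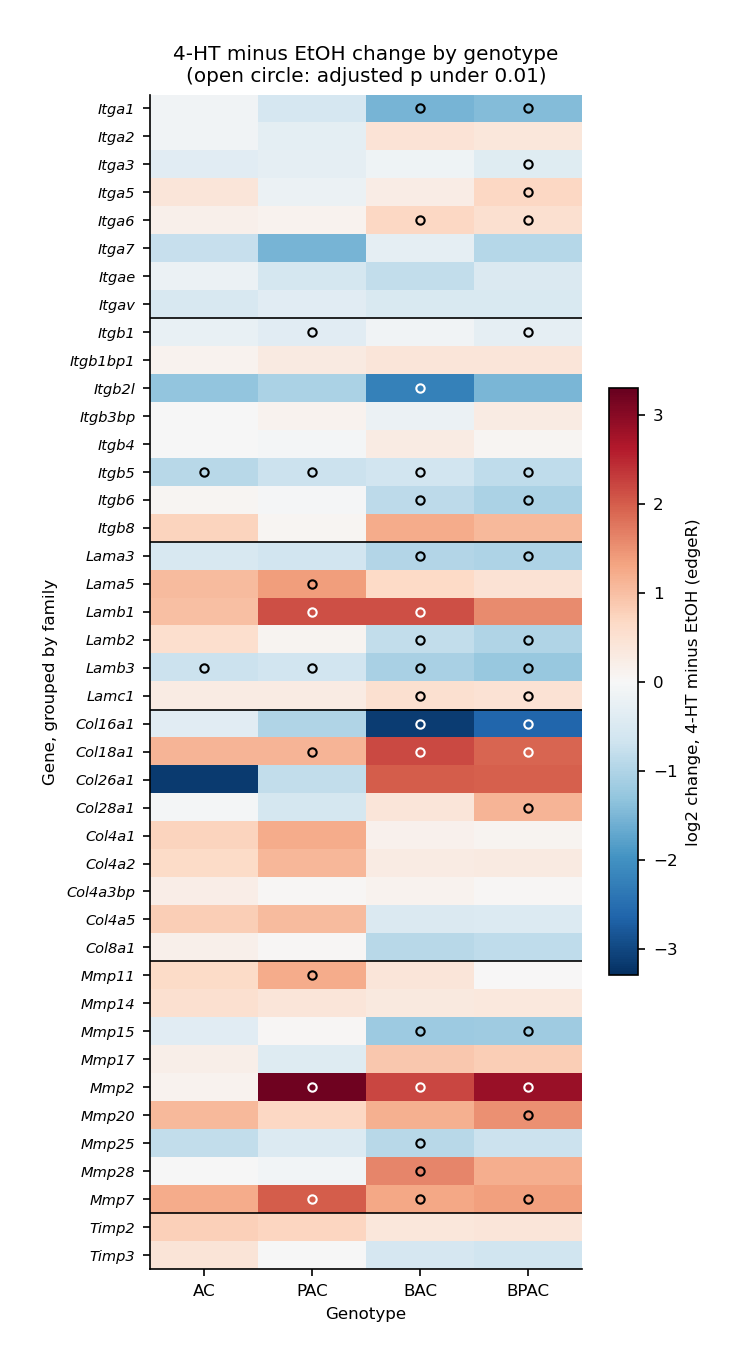
Log2 change with 4-HT (red higher, blue lower) for 42 of the 43 genes in each genotype, grouped by family; circles mark the values with an adjusted p under 0.01. Itgb5 and Lamb3 carry a circle in all 4 genotypes, and the falls of Itgb6, Mmp15, Lamb2, Lama3, Itga1 and Col16a1 carry one in BAC and BPAC only.

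Among the laminins, Lamb3 fell in every genotype, Lama3 fell in BAC and BPAC, and Lamc1, the gamma chain of most other laminins, rose in BAC and BPAC. Lamb3 (ENSMUSG00000026639, chr1:193207699-193343878) had log2 changes in AC, PAC, BAC and BPAC of -0.70 ± 0.17 (SE), -0.64 ± 0.12, -1.08 ± 0.12 and -1.26 ± 0.12 (edgeR, adjusted p = 0.0055, 2.1e-04, 6.2e-08 and 4.7e-09). Its EtOH samples held between 392 and 617 CPM and its 4-HT samples between 188 and 316 CPM, so the treatments did not overlap in any genotype, and all 14 cultures fell. Lama3 (chromosome 18) was lower in all 14 cultures as well, and its fall was called in BAC (-0.98 ± 0.20) and BPAC (-1.02 ± 0.20). In AC (-0.53 ± 0.28) and PAC (-0.64 ± 0.20) it was not called (adjusted p = 0.21 and 0.016), but was called with the block (blocked adjusted p = 0.0070 and 8.0e-05). The AC call of Lamb3 was lost without either AC culture (adjusted p up to 0.20), which leaves that genotype with 1 culture.

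The Lamc1 rises in BAC and BPAC were 0.52 ± 0.13 and 0.47 ± 0.13 (adjusted p = 0.0023 and 0.0043), with 0.27 ± 0.19 in AC and 0.26 ± 0.13 in PAC. These calls were lost without BAC donor 1, duplicate 2, or donor 2, duplicate 1, and without 3 of the 4 BPAC cultures in turn, with adjusted p up to 0.029. Lamc1 was higher with 4-HT in all 14 cultures. Lama5, the alpha chain of adult intestinal basement membrane laminin, rose in PAC (1.39 ± 0.41, adjusted p = 0.0096). Its level was higher with 4-HT in all 14 cultures. The blocked value was also called in BAC (0.68, adjusted p = 0.0076), while the call in PAC was lost without any 1 of the PAC cultures and 4 of the others (adjusted p up to 0.057). Lamb1, which passed the selection of genes through 4-HT alone, had called values in PAC (2.13 ± 0.59) and BAC (2.12 ± 0.63) from few reads. Its counts summed over the 4 EtOH samples to 35 in PAC and 22 in BAC, against 178 and 140 with 4-HT. In BPAC the log2 value was 1.56 ± 0.59 (adjusted p = 0.027). Each of the Lamb1 calls was lost without 3 of the 4 cultures of its genotype in turn.

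Lamb2, the beta chain of synaptic and vascular laminins that also pairs in epithelial basement membranes, did not share one direction across genotypes. Its gene (ENSMUSG00000052911) lies at chr9:108479736-108490530. In AC, it held 15.9 and 17.6 CPM in the EtOH samples of duplicates 1 and 2 and 23.2 and 26.2 CPM with 4-HT. In PAC, in the order donor 1, duplicates 1 and 2, then donor 2, duplicates 1 and 2, EtOH gave 11.8, 22.4, 15.4 and 20.7 CPM and 4-HT 16.5, 20.3, 16.1 and 22.6 CPM. These 6 cultures thus showed 5 rises and 1 fall. In BAC, EtOH gave 15.5, 12.6, 13.1 and 14.7 CPM and 4-HT 7.20, 8.45, 8.46 and 7.56 CPM. In BPAC, EtOH gave 11.9, 14.3, 21.1 and 19.9 CPM and 4-HT 6.69, 7.24, 10.8 and 8.98 CPM. All 8 cultures with the Braf allele fell, and their 4-HT levels lay below those of all 6 cultures without it. The log2 values were 0.56 ± 0.27 in AC and 0.10 ± 0.19 in PAC, against -0.82 ± 0.19 for BAC and -0.99 ± 0.19 for BPAC (adjusted p = 8.5e-04 and 1.0e-04). The BAC call was lost without BAC donor 1, duplicate 1 (adjusted p = 0.012).

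**Figure D3:**
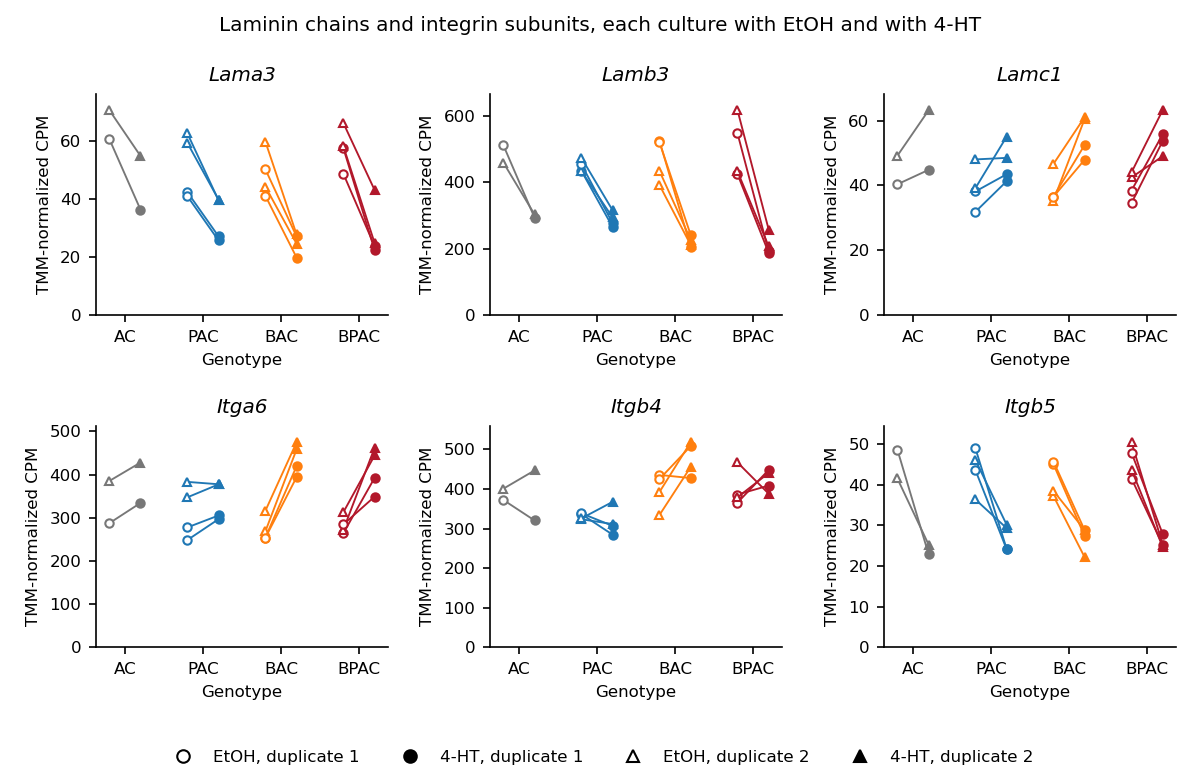
TMM-normalized CPM of the laminin chains Lama3, Lamb3 and Lamc1 and of the integrin subunits Itga6, Itgb4 and Itgb5; each line joins the EtOH sample (open) and the 4-HT sample (filled) of 1 culture. Lamb3 and Itgb5 fell in all 14 cultures, and Itga6 rose in all 8 BAC and BPAC cultures.

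Among the integrins, neither subunit of the laminin receptor of Itga6 and Itgb4 was called lower in any genotype. Itga6 rose in BAC and BPAC by 0.68 ± 0.13 and 0.54 ± 0.13 (adjusted p = 1.5e-04 and 0.0014), with 0.18 ± 0.19 in AC and 0.11 ± 0.13 in PAC. It was higher with 4-HT in 13 of 14 cultures. The BPAC call was lost without BPAC donor 1, duplicate 2 (adjusted p = 0.015). Itgb4 was called in no genotype, with log2 values from -0.06 ± 0.11 in PAC to 0.27 ± 0.11 in BAC. Itga3, which pairs with Itgb1 to bind laminin, fell in BPAC (-0.40 ± 0.09, adjusted p = 9.2e-04), a call lost without BPAC donor 1, duplicate 2 (adjusted p = 0.019). In PAC its value was -0.30 ± 0.09 (adjusted p = 0.016, blocked 0.0061). Itgb1, the common beta chain, fell in PAC and BPAC, with values of -0.36 ± 0.10 and -0.31 ± 0.10 (adjusted p = 0.0044 and 0.0080). The PAC call was lost without either PAC culture of duplicate 1 (adjusted p up to 0.035) and the BPAC call in 7 of the 14 refits that left out 1 culture, 4 of them BAC cultures.

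Of the collagen receptor chains, Itga1 fell 2.89-fold in BAC and 2.71-fold in BPAC (log2 -1.53 ± 0.28 and -1.44 ± 0.28, adjusted p = 6.4e-05 and 1.1e-04). Its BAC samples, in the culture order used above, held 4.22, 4.29, 4.51 and 6.501 CPM with EtOH and 1.16, 2.21, 1.65 and 1.79 CPM with 4-HT. Its BPAC samples held 4.17, 4.44, 4.89 and 6.47 CPM with EtOH and 1.62, 2.14, 1.55 and 2.08 CPM with 4-HT. The treatments did not overlap in either genotype. In AC, EtOH gave 6.02 and 5.84 CPM and 4-HT 5.28 and 5.57 CPM, and in PAC, EtOH gave 7.13, 11.02, 3.17 and 5.65 CPM and 4-HT 3.62, 5.05, 3.67 and 6.02 CPM, so that the treatments overlapped in PAC. Itga2 was higher with 4-HT in all 8 BAC and BPAC cultures, with log2 values of 0.46 ± 0.17 and 0.38 ± 0.17 that were not called and passed with the block (blocked adjusted p = 0.0017 and 0.0062).

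Itgb5 (ENSMUSG00000022817, chr16:33829665-33949338) fell in all 4 genotypes, with changes of -0.90 ± 0.16, -0.70 ± 0.11, -0.64 ± 0.11 and -0.83 ± 0.11 on the log2 scale in AC, PAC, BAC and BPAC (adjusted p = 5.7e-04, 4.9e-05, 3.0e-05 and 6.6e-07), and the AC call was lost without either AC culture (adjusted p up to 0.099). Its EtOH samples ranged from 36.4 to 50.4 CPM and its 4-HT samples from 22.2 to 30.2 CPM, without overlap. Itgav, the alpha chain that Itgb5 and Itgb6 pair with, was lower in 14 of 14 cultures, with log2 values from -0.53 ± 0.42 in AC to -0.38 ± 0.29 in PAC. It was called in no genotype (adjusted p from 0.14 to 0.42) and in all 4 with the block (blocked adjusted p from 4.6e-05 to 0.0036). Its level differed between duplicates, with EtOH samples of 57.9 to 82.8 CPM in duplicate 1 and 95.5 to 129 CPM in duplicate 2. Itga5, the fibronectin receptor alpha chain, rose in BPAC (0.69 ± 0.20, adjusted p = 0.0050), a call lost without each of 3 BPAC cultures (adjusted p up to 0.039). Itga7, a muscle laminin receptor chain, was lower in PAC (-1.53 ± 0.47) and BPAC (-0.93 ± 0.45) with adjusted p = 0.013 and 0.082, and both values were called with the block (4.8e-04 and 0.0039).

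Itgb6, the epithelial beta chain that binds latent TGF-beta together with Itgav, fell in BAC and BPAC. Its gene (ENSMUSG00000026971) lies at chr2:60598292-60722643. In AC, it held 50.2 and 61.1 CPM with EtOH and 52.4 and 63.2 CPM with 4-HT. In PAC, EtOH gave 44.1, 49.1, 50.4 and 50.9 CPM and 4-HT 47.0, 44.2, 45.3 and 53.4 CPM. The treatments overlapped in both genotypes. In BAC, EtOH gave 53.1, 55.3, 55.6 and 55.3 CPM and 4-HT 28.6, 29.9, 28.2 and 33.1 CPM. In BPAC, EtOH gave 62.5, 69.1, 47.3 and 54.6 CPM and 4-HT 24.2, 36.9, 24.0 and 28.6 CPM. Here no 4-HT sample reached any EtOH sample of its genotype. The log2 values were 0.05 ± 0.17 in AC and -0.03 ± 0.12 in PAC, against -0.87 ± 0.12 for BAC and -1.04 ± 0.12 for BPAC (adjusted p = 2.2e-06 and 1.4e-07).

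The remaining integrin rows stood low. Itgae was called in no genotype, with log2 values from -0.81 ± 0.41 in BAC to -0.20 ± 0.56 in AC. Itgb8 had log2 values from 0.07 ± 0.71 to 1.22 ± 0.72 at 0.046 RPKM in EtOH and was not called. Of the 4 rows that meet the naming rule only, Itgb2l, which passed the selection of genes through EtOH alone, had -2.23 ± 0.60 in BAC (adjusted p = 0.0029), a call lost without each of 3 BAC cultures (adjusted p up to 0.023), and had -1.50 ± 0.56 in BPAC (adjusted p = 0.026, blocked 0.0029). Itgb1bp1 was not called and passed with the block in BAC and BPAC (log2 0.39 ± 0.14 in each, blocked adjusted p = 0.0079 and 0.0068), and Itgb3bp and Col4a3bp were not called. Without these 4 rows the called members of AC, PAC, BAC and BPAC numbered 2, 9, 16 and 19.

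Among the collagens, Col18a1, a basement membrane collagen whose tail is released as endostatin, rose in PAC, BAC and BPAC. Its log2 change was 1.13 ± 0.30 for PAC (adjusted p = 0.0043), with 2.17 ± 0.30 for BAC (4.49-fold) and 1.92 ± 0.30 for BPAC (3.79-fold; adjusted p = 2.1e-06 and 7.4e-06). AC had 1.11 ± 0.42. In AC, the EtOH samples held 17.7 and 26.1 CPM and the 4-HT samples 26.4 and 68.1 CPM. In PAC, EtOH gave 13.3, 17.5, 18.9 and 25.9 CPM and 4-HT 36.8, 41.1, 37.1 and 50.5 CPM. All 6 of these cultures rose. In BAC, EtOH gave 16.4, 12.0, 16.6 and 13.4 CPM and 4-HT 71.2, 56.8, 91.3 and 43.2 CPM. In BPAC, EtOH gave 16.7, 15.4, 22.6 and 24.0 CPM and 4-HT 52.6, 50.1, 126 and 69.1 CPM. The rise held in all 14 cultures and the treatments did not overlap in any genotype. In AC it passed with the block (blocked adjusted p = 0.0037), and the PAC call was lost without any 1 of 3 PAC cultures (adjusted p up to 0.028).

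Col16a1, a collagen of the fibril surface, had the largest called falls of the 43 members, from few reads. In BAC, it had 18, 13, 53 and 35 counts with EtOH and 4, 0, 10 and 5 counts with 4-HT. In BPAC, EtOH gave 21, 41, 44 and 18 counts and 4-HT 8, 1, 11 and 13 counts. No 4-HT count reached an EtOH count in these genotypes. AC had 47 and 10 counts with EtOH and 32 and 21 with 4-HT, and PAC 22, 69, 47 and 47 counts with EtOH and 35, 12, 28 and 37 with 4-HT, where the treatments overlapped. The log2 changes in BAC and BPAC were -3.13 ± 0.65 (adjusted p = 2.6e-04) and -2.61 ± 0.60 (adjusted p = 7.3e-04), both called without any 1 culture.

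Collagen IV, the network of the basement membrane, was not called in any genotype. Col4a1 and Col4a2 start on opposite strands of chromosome 8 with 21 bases between their annotated starts. They had similar log2 values, of 0.74 ± 0.55 and 0.62 ± 0.57 in AC and of 1.22 ± 0.40 and 1.10 ± 0.41 in PAC. In BAC they were 0.15 ± 0.39 and 0.28 ± 0.41, and in BPAC 0.09 ± 0.39 and 0.28 ± 0.41. Only the PAC values were called with the block (2.2e-04 and 1.7e-04). Their levels varied widely, from 8.82 to 49.3 CPM for Col4a2 in the EtOH samples. In PAC the summed fibroblast and muscle markers stood at 22.0 to 45.5 CPM with EtOH and 50.8 to 59.1 CPM with 4-HT, most of it Fbln1, while Pdgfrb had a log2 value of -0.94, and the part of such cells in the collagen IV values was not tested. Col28a1, which passed the selection through 4-HT alone, had a called value in BPAC (1.12 ± 0.34, adjusted p = 0.0069, blocked 0.013), a call lost without any 1 BPAC culture. Col26a1, Col4a5 and Col8a1 were not called, and Col26a1 had 6 and 3 counts in AC with EtOH and 1 and 0 with 4-HT, so no fold is given.

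Among the proteases, Mmp7 rose in PAC, BAC and BPAC, and Mmp15 fell in BAC and BPAC. Mmp7, which is secreted by intestinal epithelium, was higher with 4-HT in all 14 cultures. Its log2 changes in PAC, BAC and BPAC were 2.00 ± 0.37, 1.27 ± 0.37 and 1.36 ± 0.37 (adjusted p = 2.5e-04, 0.0061 and 0.0031), while AC had 1.23 ± 0.52 (adjusted p = 0.10, blocked 0.0074). The donors differed, since the BPAC EtOH samples held 5.35 and 3.43 CPM in donor 1 and 14.9 and 18.3 CPM in donor 2. The BAC call was lost without any 1 BAC culture (adjusted p up to 0.035) and the BPAC call without donor 2, duplicate 1 (adjusted p = 0.013).

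Mmp15 (ENSMUSG00000031790, chr8:95352268-95375080), a protease anchored in the plasma membrane, was the Mmp with the highest mean level in EtOH, while with 4-HT Mmp7 (32.5 ± 14.8 RPKM) and Mmp15 (29.3 ± 12.0 RPKM) had overlapping ranges. In AC, it held 324 and 313 CPM with EtOH and 229 and 262 CPM with 4-HT. In PAC, EtOH gave 239, 254, 205 and 162 CPM and 4-HT 207, 244, 212 and 214 CPM, where the treatments overlapped. In BAC, EtOH gave 246, 194, 259 and 241 CPM and 4-HT 99.7, 89.6, 114 and 107 CPM. In BPAC, EtOH gave 213, 259, 288 and 232 CPM and 4-HT 104, 97.8, 133 and 102 CPM. All 8 of these 4-HT samples lay below every other sample of the series. The log2 values were -0.38 ± 0.18 in AC and 0.03 ± 0.13 in PAC, against -1.20 ± 0.13 for BAC (2.29-fold lower) and -1.19 ± 0.13 for BPAC (2.27-fold lower; adjusted p = 4.8e-08 and 4.3e-08).

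Mmp2, a gelatinase made mainly by stromal cells, had the highest called values, on very few reads, and passed the selection of genes through 4-HT alone. In PAC, it had 0, 0, 2 and 2 counts with EtOH and 11, 3, 19 and 14 with 4-HT. In BAC, EtOH gave 4, 4, 4 and 3 counts and 4-HT 28, 28, 38 and 11. In BPAC, EtOH gave 6, 2, 3 and 3 counts and 4-HT 43, 29, 56 and 45. The treatments did not overlap in these 3 genotypes, while AC had 7 and 7 counts with EtOH and 15 and 4 with 4-HT. Their log2 changes were 3.22 ± 0.66, 2.21 ± 0.50 and 2.85 ± 0.50 (adjusted p = 5.8e-04, 7.0e-04 and 3.4e-05). The PAC value rests on 4 counts in the EtOH samples together, so its size is loosely set. The summed fibroblast and muscle markers stood at 27.1 to 34.8 CPM in BAC with EtOH and 30.6 to 35.9 CPM with 4-HT, and at 22.6 to 40.5 and 28.7 to 55.4 CPM in BPAC. Within this sum Pdgfrb fell in BAC and BPAC (log2 -2.80 and -2.92, adjusted p = 2.9e-05 and 1.4e-05), while Fbln1 had 0.41 and 0.82 and was not called. The part of such cells in the Mmp2 values was not tested.

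The other Mmps with calls were low as well. Mmp28 (epilysin) rose in BAC (1.61 ± 0.42, adjusted p = 0.0024), lost without BAC donor 1 or donor 2, duplicate 1 (adjusted p up to 0.016), with 1.19 ± 0.40 in BPAC (adjusted p = 0.014, blocked 5.5e-04). Mmp25 fell in BAC (-0.92 ± 0.24, adjusted p = 0.0020), lost without BAC donor 1 or donor 2, duplicate 2 (adjusted p up to 0.013), with -0.70 ± 0.24 in BPAC (adjusted p = 0.014, blocked 0.0011), -0.80 ± 0.33 in AC and -0.46 ± 0.23 in PAC. It was lower with 4-HT in all 14 cultures. Mmp11 had a called value in PAC (1.21 ± 0.33, adjusted p = 0.0052), lost without any 1 PAC culture (adjusted p up to 0.049). Mmp20 had one in BPAC (1.505 ± 0.472, adjusted p = 0.0088) that held in 4 of the 14 refits without 1 culture. Both passed the selection of genes through 4-HT alone. Mmp14, an activator of Mmp2, was not called, with log2 values from 0.32 ± 0.18 in BAC to 0.53 ± 0.26 in AC, and the BPAC value alone passed with the block (blocked adjusted p = 0.0085). Mmp17 was not called.

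Neither Timp was called, and Timp2 was higher with 4-HT in all 14 cultures. Timp2 had log2 values of 0.78 ± 0.37 in AC and 0.71 ± 0.26 in PAC, against 0.37 ± 0.27 for BAC and 0.39 ± 0.26 for BPAC, of which the first pair passed with the block (blocked adjusted p = 0.0019 and 7.0e-05). The summed fibroblast and muscle markers were higher with 4-HT without overlap in the same genotypes, at 33.9 to 47.1 CPM with EtOH and 58.8 to 74.0 CPM with 4-HT in AC and at the values given above in PAC. Fbln1 carried this rise (0.97 in AC), while Pdgfrb and Vim had -1.63 and -0.46 in AC, and their part in the Timp2 values was not tested. Timp3 had values from -0.65 ± 0.50 in BPAC to 0.43 ± 0.70 in AC.

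The question whether the Braf allele alters the 4-HT response was tested as the difference between the mean log2 changes of the genotypes with it (BAC, BPAC) and without it (AC, PAC). Of the 43 members 3 were called, all lower, where 3.05% of all genes were higher and 3.55% lower. They were Lamb2 (-1.24 ± 0.21, adjusted p = 3.7e-04), Mmp15 (-1.02 ± 0.14, adjusted p = 6.1e-05) and Itgb6 (-0.97 ± 0.14, adjusted p = 6.1e-05). All 3 were called without any 1 culture (adjusted p up to 0.0059) and without both PAC cultures of duplicate 1 (adjusted p up to 6.2e-04). Within duplicate 1 alone the differences were -1.30, -0.86 and -1.07 for Lamb2, Mmp15 and Itgb6, and within duplicate 2 alone -1.20, -1.17 and -0.87, of which Itgb6 in duplicate 1 was called (adjusted p = 0.0012). With the culture as a block 10 members were called (14% of all genes), which added Itga1 (-1.19), Lamb3 (-0.49) and Col16a1 (-2.37) as lower and Itga2 (0.65), Itga6 (0.45), Col18a1 (0.91) and Mmp28 (1.39) as higher (blocked adjusted p from 9.1e-04 to 0.0089). Across cultures the changes did not overlap between the 8 with and the 6 without the allele for 4 members that were lower with it (Itgb6, Lamb2, Lamb3 and Mmp15, where 4.47% of all genes were so) and 4 that were higher (Itga2, Itga6, Col18a1 and Mmp28, where 4.90% were).

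**Figure D4:**
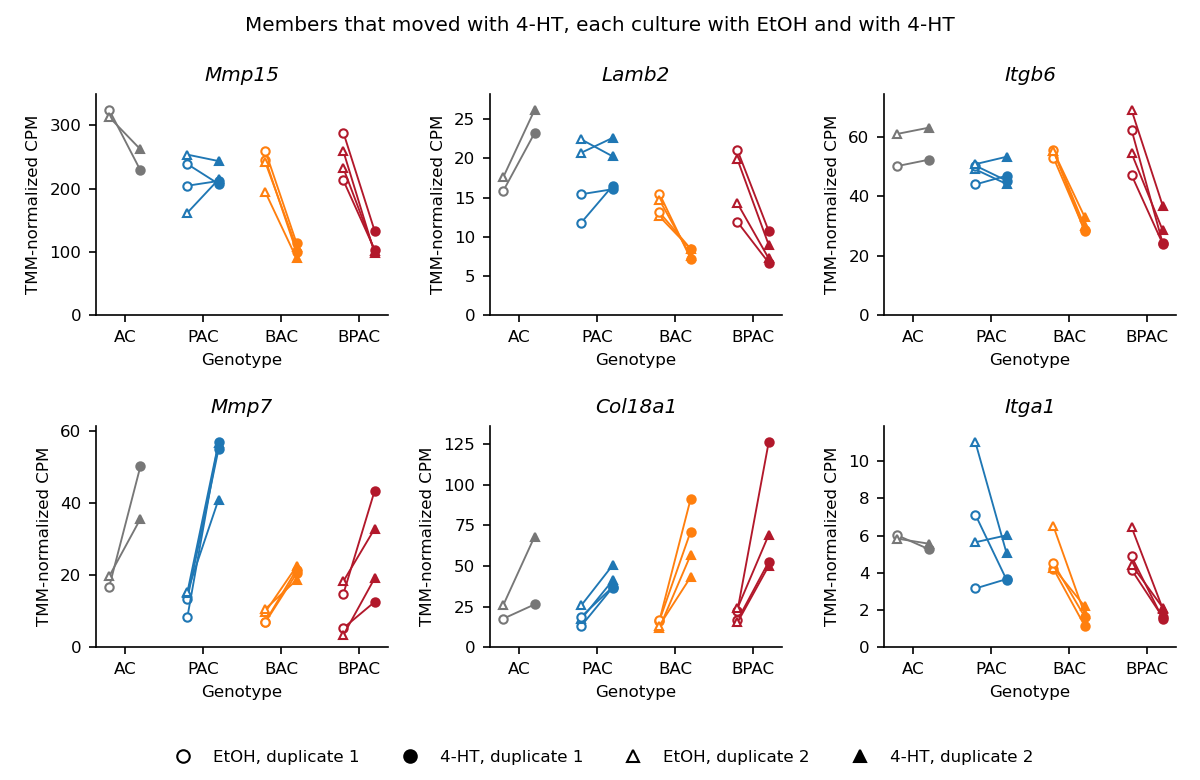
TMM-normalized CPM of Mmp15, Lamb2, Itgb6, Mmp7, Col18a1 and Itga1; each line joins the EtOH sample (open) and the 4-HT sample (filled) of 1 culture. Mmp15, Lamb2 and Itgb6 fell in all 8 BAC and BPAC cultures and not in all of the 6 AC and PAC cultures, whereas Mmp7 and Col18a1 rose in all 14.

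**Figure D5:**
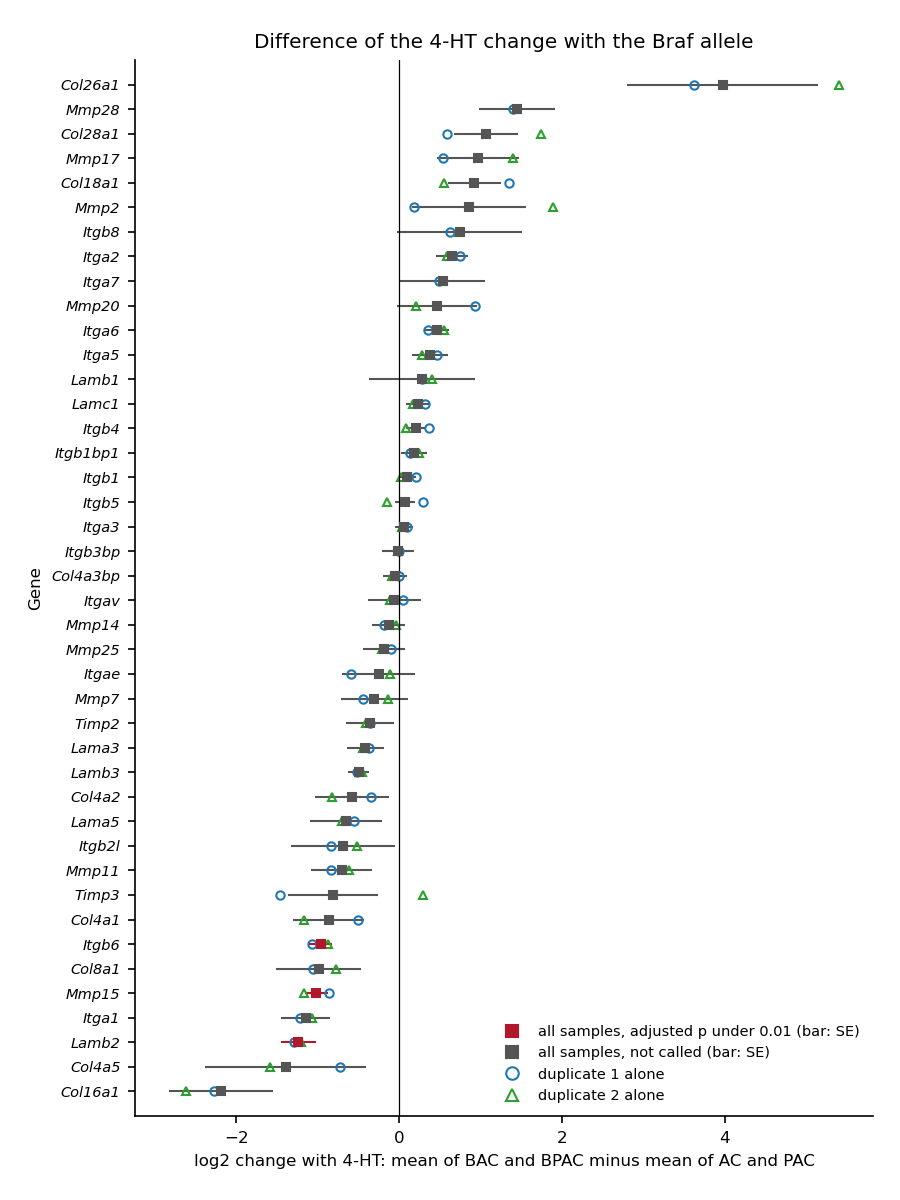
Difference of the 4-HT change between organoids with and without the Braf allele for 42 of the 43 genes, as log2 (squares, bars are SE), with the values of duplicate 1 alone (circles) and duplicate 2 alone (triangles). Red squares mark the 3 called members, Lamb2 (-1.24), Mmp15 (-1.02) and Itgb6 (-0.97).

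The same allele contrast within each treatment gave 0 called members among the EtOH samples, where 0.0296% of all genes were called, and 8 members at an unadjusted p under 0.05 (17.2% of all genes). Among the 4-HT samples 6 members were higher and 12 lower with the Braf allele, against 15.6% and 14.6% of all genes. The lower ones included Lamb2 (-1.40 ± 0.15), Mmp15 (-1.13 ± 0.10), Itgb6 (-0.85 ± 0.09), Itga1 (-1.50 ± 0.21), Mmp7 (-1.0 ± 0.28), Timp2 (-0.92 ± 0.20), Lama3 (-0.55 ± 0.16) and Lamb3 (-0.44 ± 0.09), together with Col16a1, Mmp11 and Mmp25. For Mmp7 and Timp2 the difference of the 4-HT change was smaller, -0.30 and -0.36, and was not called. Part of their gap thus stood in EtOH already, where it was not called. With EtOH, Mmp7 held 6.95 to 10.6 CPM in BAC and 3.43 to 18.3 CPM in BPAC. AC and PAC held 16.8 to 19.7 and 8.30 to 15.4 CPM. The Timp2 ranges, in the same order, were 16.4 to 17.6, 15.4 to 31.15, 25.5 to 37.25 and 21.4 to 41.2 CPM. Without the 9 members that passed the selection of genes through one treatment alone, 3 were higher and 11 lower. Those 3 higher members were Itgb4 (0.36 ± 0.08), Itga7 and Mmp28, and the other higher calls, of Col26a1, Col28a1 and Mmp2, which passed through 4-HT alone, are a description. Of these 18 calls 6 held without any 1 culture, those of Itga1, Itgb6, Lamb2, Lamb3, Col16a1 and Mmp15. Without 1 AC culture the count fell to 11 (duplicate 1) or 10 (duplicate 2). For the Trp53 allele no member was called, in the 4-HT change (0 members, 0.0148% of all genes, and 1 member at an unadjusted p under 0.05, where 1.04% of all genes were) or in the EtOH level (0 members, 0.0592% of all genes, and 4 members at an unadjusted p under 0.05, where 4.96% of all genes were).

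Partner genes were counted from 5 lists, to be read beside the shares of all genes that rose and fell, 3.00% and 4.25% (AC), 11.2% and 12.2% (PAC), 20.3% and 21.5% (BAC), and 22.0% and 23.0% (BPAC). Of 20 basement membrane partners 16 were among the genes counted, and 0 rose and 2 fell (AC), 2 rose and 4 fell (PAC), 1 rose and 4 fell (BAC), and 2 rose and 6 fell (BPAC). The list's median log2 change was -0.10, -0.11, -0.22 and -0.26. Nid1, the nidogen that joins laminin to collagen IV, fell in each genotype (-1.67, -1.30, -1.06 and -1.26), as did Plec, the plectin that ties Itgb4 to keratin (-0.77, -0.76, -0.71 and -1.10). Dst fell in PAC, BAC and BPAC (-1.19, -1.56 and -1.44), while Cd44, the hyaluronan receptor, rose there (0.88, 1.36 and 1.35). Ntn4, a netrin that binds laminin, fell in BAC (-2.20) and BPAC (-2.35), and its change was lower with the Braf allele (-1.73 ± 0.36, adjusted p = 0.0022).

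Of 25 genes of the integrin adhesion machinery 20 were counted. None was called in AC (0), while 3 rose and 2 fell in PAC, 5 rose and 3 fell in BAC, and 5 rose and 5 fell in BPAC. Flna and Actn1, which crosslink actin, rose in PAC, BAC and BPAC (Flna 1.15, 1.21 and 1.37), while Actn4 and Tns2 fell there (Actn4 -0.59, -0.65 and -0.84). The change of Lims1 (0.55 ± 0.08) and Tns4 (0.89 ± 0.14) was higher with the Braf allele and that of Tns3 lower (-0.74 ± 0.14). Of 18 other integrin ligands 9 were counted, fewer than 80%. Of them 1 rose and 0 fell (AC), 2 rose and 1 fell (PAC), 2 rose and 2 fell (BAC), and 1 rose and 3 fell (BPAC). Tgfb1, whose latent form Itgb6 binds, rose in each genotype (1.10, 0.82, 1.73 and 1.82) and more with the Braf allele (0.81 ± 0.19, adjusted p = 0.0052). Thbs1 rose in PAC (1.11), and its change was lower with the Braf allele (-1.24 ± 0.27, adjusted p = 0.0035).

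Of 30 genes of collagen biosynthesis 17 were counted, also fewer than 80%, with 0 rises and 0 falls (AC), 1 and 3 (PAC), 2 and 1 (BAC), and 3 and 2 (BPAC). Crtap, a subunit of collagen prolyl hydroxylation, rose in PAC, BAC and BPAC (0.49, 0.92 and 0.80) and Mia3, which loads collagen into transport carriers, fell there (-0.38, -0.43 and -0.48). Of 27 other matrix proteases and inhibitors 19 were counted, again fewer than 80%, and 4 fell in each genotype. These were the same 4 genes, the membrane serine protease St14 (-0.46, -0.41, -0.56 and -0.78), its inhibitors Spint1 (-0.65, -0.53, -0.75 and -0.996) and Spint2 (-0.52, -0.32, -0.75 and -0.91), and cathepsin B, Ctsb (-0.50, -0.48, -0.72 and -0.78). One gene of this list rose in PAC (Adam8, 1.17) and one in BAC (Serpine2, 2.70).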

How the data were processed

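For 28 samples the authors deposited one table of unnormalized read counts for each gene. It is limited to 13519 genes, each over 1 CPM in at least 2 samples when tested here, and genes below that were not analysed here. Per the submitters' processing notes, reads were trimmed with Trimmomatic 0.39 and aligned to GRCm38 (mm10) with STAR 2.5.2b. The counting program, its annotation and its strandedness are not given in the sources used here, so reads of overlapping or antisense genes may not be separated. Symbols, positions and exon lengths came from GENCODE (GRCm38); 13479 of 13519 identifiers matched. Totals ranged from 20577276 to 40068718 counts.

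After TMM scaling, edgeR 4.0.16 (R 4.3.3) was fitted over 8 groups of genotype and treatment with one spread, and p values were adjusted over all genes (threshold 0.01, as in the study). SEs came from the log2 change and the F statistic. RPKM used the union exon length, and changes per culture used a prior count of 2. Replicates are cultures, 2 per donor, so p values measure the spread between cultures rather than mice alone. EtOH and 4-HT samples of a culture share donor and duplicate number, and their deviations from the group means correlated in all 12 cultures of the genotypes with 4 (0.245 to 0.532), so the pairing holds and the culture was used as a block where stated. One 4-HT label lacks the duplicate number and counts here as 1. The study's methods give 3 µM in another section.

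Named are the members called in the Braf contrast, the 5 largest rises and falls per genotype, the 3 highest levels per family, every Timp, Itgae and Itgav, members at or under 3 counts in a group, and, to account for each, the other called members. The values of 1 member, kept in the counts, are not reported here. Members and lists were chosen with earlier results of these data known. Alternatives were limma-voom (limma 3.58.1), DESeq2 1.42.0, other scalings, filters, thresholds and replicate choices. The scripts were tested on simulated data. Figures were drawn with Python 3.11.15.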

Additional observations from a re-analysis of the deposited data

Results flagged for a closer look

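The changes per culture of the members named above were compared within the genotypes with 4 cultures, 126 groups in all, of which 2 held a culture far from the other 3. Dixon's criterion, used here, is set to mark about 1 in 20 groups by chance. The BPAC culture of donor 1, duplicate 1 had an Itgb6 change of -1.368 (log2), against -0.905 to -0.974 in the other cultures. The same culture had an Mmp2 change of 1.502, against 2.73 to 2.90, from 6 counts with EtOH and 43 with 4-HT. Neither value alters the direction in BPAC.

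The 4-HT change differed between organoids with and without the Braf allele, by the test of that difference, for 3 members. The differences were -0.9662 for Itgb6, -1.239 for Lamb2 and -1.019 for Mmp15 on the log2 scale. The 8 cultures with the allele came from 4 donors and the 6 without it from 3, 1 of them the single AC mouse. The 4-HT samples of duplicate 1 with the allele also had the highest totals, and with every sample thinned to the smallest total the differences were -0.95, -1.28 and -1.01.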

How the results depend on the processing

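The counts of called members rest on how cultures enter the test. In AC the count of 2 was 1 with library size alone, 0 with the genotype fitted alone and 7 with the culture as a replicate block. Donor counts summed, a duplicate alone or the loss of 1 AC culture leave AC with 1 sample per treatment. The spread then comes from the other genotypes, so no AC count is given for these settings. In PAC the count of 9 was 3 with donor counts summed, 0 in duplicate 2 alone, 0 without both cultures of duplicate 1, 5 with their 4-HT samples summed as 1 (chosen after seeing the data), 16 with the replicate block, 15 at an adjusted p of 0.05, and 4 to 11 without 1 culture. In duplicate 2 alone the counts were 6 of 17 in BAC and 8 of 19 in BPAC, whereas duplicate 1 alone, with as many samples, gave 12 (PAC), 14 (BAC) and 17 (BPAC). The 3 members of the Braf contrast became 7 with DESeq2, 0 in duplicate 2 alone, 5 without both PAC cultures of duplicate 1, 10 with the replicate block and 10 at an adjusted p of 0.05. The 18 members with another 4-HT level became 11 with donor counts summed, 11 in duplicate 1 alone, 6 in duplicate 2 alone and 10 to 19 without 1 culture. Apart from the replicate block, the share of all genes called in each of these settings is not given here. A shift in these counts is therefore not shown to be particular to the members, and its cause was not tested. Library size alone moved the median of all genes to 0.23, 0.20, 0.13 and 0.18 in AC, PAC, BAC and BPAC, with the rises and falls given above. Of 47 called changes in the 4 genotypes 24 held without each culture in turn. Over all comparisons the 68 called values had 1849 alternative values, of which 1594 kept the call, 255 lost it and 0 reversed. Some values that were not called passed in a setting other than the block, as Itgav did in duplicate 1 alone and Col4a1 and Timp2 in PAC with library size alone; of 190 such values 44 passed in some setting. Depth limits the 14 members with a mean under 50 counts, of which Mmp2, Lamb1, Col16a1 and Col26a1 are described by their counts.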
